A study of Mus musculus with 81 samples.

Results

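NF-κB is a family of dimeric transcription factors that is held ready in resting macrophages and released by infection and inflammatory signals. Of the 9 genes described here, 5 encode its subunits (Nfkb1, Nfkb2, Rel, Rela and Relb). The other 4, Nfkbia, Nfkbiz, Nfkbie and Tnfaip3, are listed here as inhibitors of the pathway. All were chosen by symbol, and these 9 of the 55450 genes listed in the time course table were read in every library. All 9 passed the filter on low counts in each of the 5 experiments.

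Rela and Rel carry transactivation domains and act mainly in the canonical arm of the pathway. Nfkb1 and Nfkb2 encode the precursors p105 and p100, which are cut to the DNA-binding subunits p50 and p52, and Relb pairs with p52 in the non-canonical arm. IκBα (Nfkbia) and IκBε (Nfkbie) hold dimers in the cytoplasm, IκBζ (Nfkbiz) works in the nucleus on a subset of target genes, and the ubiquitin-editing enzyme A20 (Tnfaip3) shuts off signalling upstream of the IκB kinases. Nfkbiz is listed with the inhibitors by family name, and its level is not read here as inhibition. Most of the genes described here are themselves NF-κB targets, so their transcripts are commonly read as a record of pathway activity. RNA counts do not show whether the proteins were in the nucleus.

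The study asked what loss of the replacement histone H3.3 does to macrophages. RNA depleted of ribosomal RNA, per the labels, was sequenced from cells of C57BL/6 mice of both sexes, 8 to 10 weeks old. WT mice carried H3f3a fl/fl and H3f3b fl/fl without Cre, and cKO mice carried the same alleles with LysM cre/cre, which is meant to delete both H3.3 genes in macrophages and granulocytes and also disrupts both copies of Lyz2. Bone marrow-derived macrophages (BMDMs) were grown in 20% L929-conditioned medium. Libraries came from BMDM progenitors on days 3 and 5, from BMDMs on day 7, from day 8 BMDMs left untreated or given IFNγ for 12 h, from freshly collected peritoneal macrophages, from BMDMs lysed on day 6 after no antibody, an isotype control antibody or an IFNAR1-blocking antibody (10 µg/mL, renewed every 12 h), and from 3 separate sets of WT and cKO BMDMs with 3 cKO lines that also lacked Sting, Mavs or Irf7. The labels do not say which set belongs to which double knockout. Each group had 3 libraries, except that the day 8 cKO groups had 2.

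Of 81 libraries, 79 were placed in 27 groups. The other 2, both day 8 cKO replicate 3, have a title and a library name that contradict each other on IFNγ and entered no comparison. Depth differed between experiments. A library held 14419697 to 20220329 counts on genes for the time course, 3614967 to 10498769 for day 8, 7625225 to 23381318 for the peritoneal cells, 5295144 to 34380735 for the antibody arms and 21504555 to 45581528 for the sets. H3f3a was lower in every cKO library than in any WT library, at 1.20 to 15.3 against 33.6 to 93.7 CPM, which are counts scaled to a common library size. H3f3b was at 16.7 to 67.7 CPM in cKO against 295 to 468 CPM in WT in the antibody experiment. Elsewhere it was less separated, at 148 to 222 against 181 to 280 CPM in the time course, 173 to 325 against 205 to 315 CPM on day 8, 302 to 360 against 354 to 535 CPM in peritoneal macrophages and 71.8 to 220.2 against 200.3 to 285 CPM in the sets. Macrophage marker genes, summed over 8 genes, reached 2840 to 12014 CPM in every placed library. In the antibody experiment, correlations of log2 CPM within a group fell to 0.894, and WT no antibody replicate 1, WT IFNAR1 replicate 3 and cKO IFNAR1 replicate 1 were least like their own groups. Correlations also fell to 0.9098 in WT on day 7 and to 0.9309 in WT peritoneal macrophages. Replicate 1 was least like its group in both genotypes on day 3 and in WT of set 3. In WT of set 1, mean r was 0.9776 for replicate 1 and 0.9775 for replicate 3, and replicate 1 differed in immediate early genes.

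Members are spread over the genome. On GRCm38 they lie at chr3:135584655-135691547 (Nfkb1, minus strand), chr19:46304320-46312385 (Nfkb2, plus), chr11:23736847-23770970 (Rel, minus), chr19:5637483-5648130 (Rela, plus), chr7:19606217-19629438 (Relb, minus), chr12:55489410-55492647 (Nfkbia, minus), chr16:55811375-55838899 (Nfkbiz, minus), chr17:45555703-45563169 (Nfkbie, plus) and chr10:19000910-19015657 (Tnfaip3, minus). Exons of Nfkb2 overlap those of other genes over 830 bases, where reads could not be given to one gene.

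Windows of 250 bases before the transcription start were read from RefSeq (GRCm38.p6) for 6 of the 9 members, all but Nfkb1, Relb and Nfkbiz, and made 9 windows. The NF-κB consensus, on either strand, was found in 7.25% of all 32851 windows and in windows of Nfkb2, Rel, Nfkbia, Nfkbie and Tnfaip3. The 130 bases before the start are given for the 2 members that rose most with IFNγ (Nfkbie and Tnfaip3), for the classical feedback inhibitor Nfkbia and, by contrast, for Rel, which did not pass the test with IFNγ. Capitals mark the consensus match or matches, and each strand is read 5′ to 3′ towards the start.
Nfkbie, chr17:45555570-45555699, plus: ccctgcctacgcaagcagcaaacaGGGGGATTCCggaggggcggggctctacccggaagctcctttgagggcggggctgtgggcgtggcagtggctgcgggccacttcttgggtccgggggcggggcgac
Tnfaip3, chr10:19015411-19015540, minus: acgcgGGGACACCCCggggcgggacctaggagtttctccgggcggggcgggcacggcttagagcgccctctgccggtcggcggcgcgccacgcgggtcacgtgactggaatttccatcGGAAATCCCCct
Nfkbia, chr12:55492648-55492777, minus: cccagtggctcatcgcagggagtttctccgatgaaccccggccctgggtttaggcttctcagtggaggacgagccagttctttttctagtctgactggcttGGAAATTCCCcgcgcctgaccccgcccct
Rel, chr11:23770970-23771099, minus: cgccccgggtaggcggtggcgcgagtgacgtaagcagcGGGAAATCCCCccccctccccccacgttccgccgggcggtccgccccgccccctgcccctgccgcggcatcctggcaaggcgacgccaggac

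The match lay 106 to 97 bases before the start of Nfkbie and 29 to 20 bases before that of Nfkbia. Tnfaip3 held a pair of matches, at 125 to 116 and at 12 to 3 bases, and those of Rel overlapped, at 92 to 83 and 91 to 82 bases. The most upstream of 3 Nfkb2 windows held 3 matches within 39 bases of its start (GGGAATTCCC and GGAATTCCCC, which overlap, and GGGGCTTTCC). No match was in the Rela window. A match is a run of letters and not a bound site, and elements outside these windows were not searched.

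Averaged over the groups of each experiment, Nfkbia and then Rela were the most abundant members per length of exon in all 5 experiments. Single groups departed from this: Rela was above Nfkbia in cKO Sting KO and in cKO with the control antibody, Nfkbie was above Rela with IFNγ in both genotypes, and Tnfaip3 was above Rela in WT without antibody and with the IFNAR1 antibody. In untreated WT day 8 BMDMs, mean CPM per kilobase of exon (± SD, n = 3) was 33.4 ± 1.63 for Nfkbia and 22.6 ± 1.0 for Rela. Nfkb2 (10.9 ± 1.94), Nfkb1 (9.42 ± 0.50) and Rel (8.03 ± 0.61) followed. Relb (6.40 ± 0.77), Nfkbie (5.13 ± 0.99), Tnfaip3 (4.66 ± 0.36) and Nfkbiz (3.53 ± 0.24) came last. Nfkb2 and Nfkb1 overlapped, as did Relb with Nfkbie and Nfkbie with Tnfaip3. By these averages, Nfkbie and Tnfaip3 ranked anywhere from 3rd to 9th.

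The genes listed as inhibitors moved over a wider range than the subunits. Across the BMDM groups, the highest group mean in CPM was 11.8 times the lowest for Tnfaip3, 11.3 times for Nfkbie, 7.80 times for Nfkbiz and 4.16 times for Nfkbia. Among the subunits the ratio was 3.35 for Relb, 2.996 for Rel, 2.82 for Nfkb2, 1.91 for Nfkb1 and 1.68 for Rela. These ratios cross experiments that share no libraries, and levels were not tested between experiments.

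In WT day 8 BMDMs, IFNγ raised 6 of the 9 members, led by the inhibitors Nfkbie and Tnfaip3, while Rel, Rela and Nfkbiz did not pass the test. With edgeR's quasi-likelihood test and adjustment over all genes tested, 20% of all genes rose in this comparison and 40.1% changed in either direction. The median log2 fold change was 0.78 over the members and -0.01 over all genes. In the same bulk samples a change in the make-up of the culture and a change of RNA per cell cannot be told apart.

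Nfkbie was at 14.1, 19.1 and 13.6 CPM in the untreated WT libraries and at 61.4, 119.5 and 93.7 CPM after IFNγ. Every treated library stood above every untreated one, a 5.86-fold rise (2.55 on the log2 scale, SE 0.26, adjusted p = 4.492e-05). Tnfaip3 went from 32.0, 36.7 and 32.4 CPM to 90.3, 147.4 and 123.4 CPM, again with no overlap (1.84 on the log2 scale, SE 0.18, adjusted p = 2.867e-05). Nfkbia, the most abundant inhibitor, moved less, from 52.1, 56.8 and 52.4 CPM to 74.0, 113.4 and 88.8 CPM (0.77, SE 0.16, adjusted p = 0.003482). Nfkbiz, whose product works in the nucleus, had a log2 fold change of 0.21 (adjusted p = 0.3566).

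Both genes of the non-canonical arm rose. Relb was at 22.1, 28.1 and 24.4 CPM untreated and at 46.1, 74.2 and 64.2 CPM with IFNγ (1.30, SE 0.20, adjusted p = 0.0006081). Nfkb2 was at 46.5, 60.2 and 43.5 CPM and then at 84.2, 116.4 and 95.8 CPM (0.98, SE 0.17, adjusted p = 0.001391). The p50 precursor gene Nfkb1 rose from 116.2, 117.8 and 106.7 CPM to 175.4, 229.1 and 180.3 CPM (0.78, SE 0.14, adjusted p = 0.001471). Rel and Rela did not pass the test: Rel overlapped between 54.7 to 62.9 and 61.2 to 85.7 CPM (0.22, adjusted p = 0.4809), and Rela had a log2 fold change of 0.14 (95% interval -0.13 to 0.41, adjusted p = 0.4038). All 6 calls in WT stood under every alternative tried, each left-out library included.

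**Figure D1:**
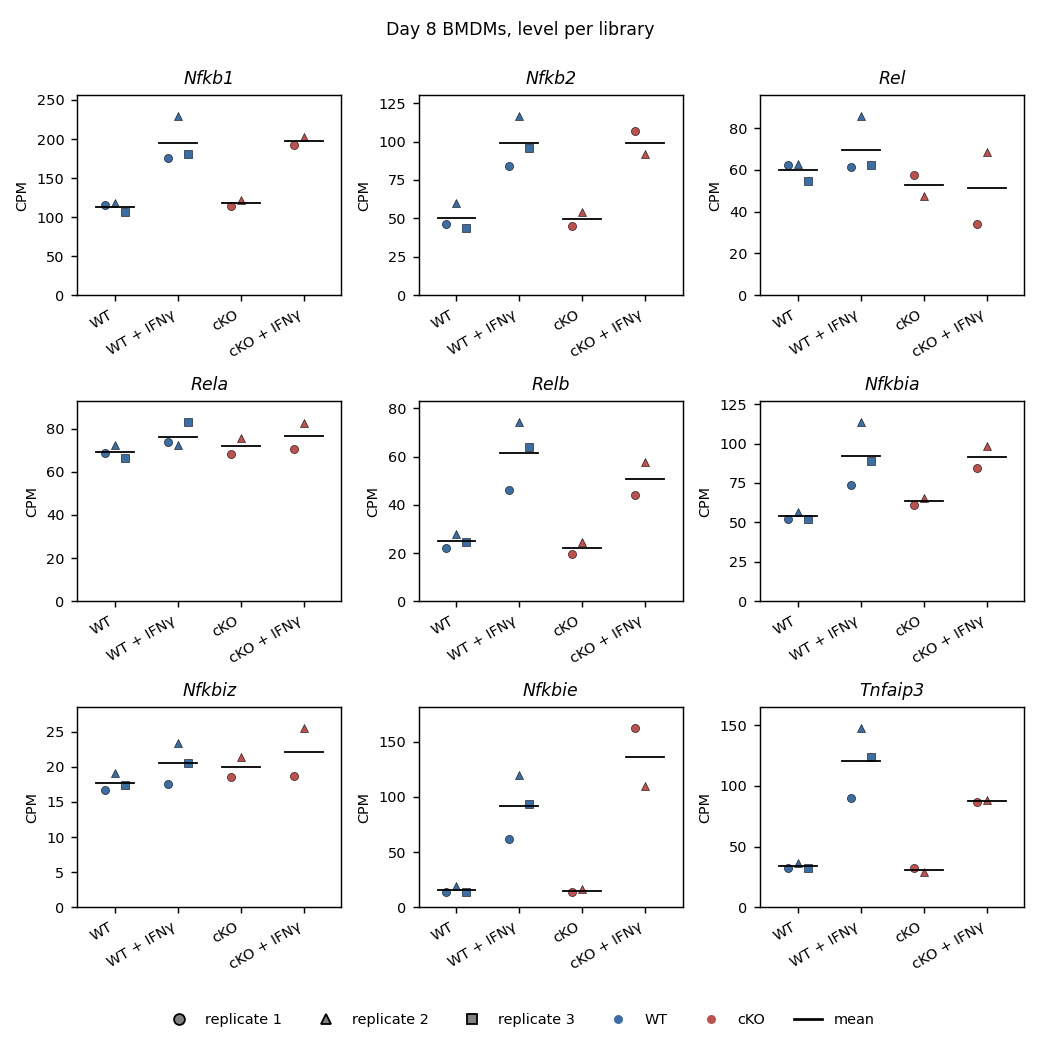
CPM of the 9 members in each day 8 library, untreated or with IFNγ for 12 h, for WT (3 libraries a group) and cKO (2 a group); points are libraries and bars group means. Nfkbie shows the widest separation, from 13.6 to 19.1 CPM in untreated libraries of both genotypes to 61.4 to 162 CPM with IFNγ, while Rel and Rela overlap.

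In cKO BMDMs, 5 of the 9 members rose (Nfkb1, Nfkb2, Relb, Nfkbie and Tnfaip3) against 17.2% of all genes, with 33.6% changed in either direction. Nfkbie was at 14.1 and 16.2 CPM untreated and at 162 and 110.0 CPM with IFNγ (3.15 on the log2 scale, SE 0.33, adjusted p = 8.219e-05). Tnfaip3 was at 32.5 and 29.0 CPM and then at 86.7 and 88.6 CPM (1.51, SE 0.22, adjusted p = 0.0005929). The log2 fold change was 1.23 for Relb (adjusted p = 0.004295), 0.99 for Nfkb2 (adjusted p = 0.00593) and 0.74 for Nfkb1 (adjusted p = 0.008106). Nfkbia, at 61.1 and 65.7 CPM untreated and 84.3 and 98.1 CPM treated, gave 0.53 (SE 0.20, adjusted p = 0.06228).

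These calls rest on few libraries. cKO IFNγ replicate 1 was the shallowest of all, at 3614967 counts, with 57.1% of its reads unmapped against 12.6 to 18.3% in the other day 8 libraries. Its correlation with replicate 2 was 0.891, and its stromal markers summed to 358 CPM against 55.3 CPM there. The count of called members ran from 2 to 6 as single libraries were left out. Without untreated replicate 1, Nfkb1, Nfkb2 and Relb lost their calls (adjusted p = 0.0769, 0.0655 and 0.0553), and without untreated replicate 2, Nfkb1 did (0.0529). Adding the 2 contradictory libraries by their titles ended all 5 calls and adding them by their library names gave 6. Of these libraries, the one titled untreated held 99.4 CPM of Nfkbie and the one titled IFNγ 18.1 CPM. Between cKO and WT with IFNγ, placing them by title called 15 of all genes and by library name 1199.

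No member's IFNγ response was called different between the genotypes. The difference, cKO minus WT, was 0.60 on the log2 scale for Nfkbie (SE 0.40, adjusted p = 0.6595) and -0.32 for Tnfaip3 (SE 0.28, adjusted p = 0.7281). By edgeR, 0 of the 9 members and 0% of all genes passed this interaction test, 0 members and 8.45% of all genes had an unadjusted p under 0.05, and DESeq2 called 0. The 95% interval for Nfkbie ran from -0.29 to 1.49, so a difference of more than a doubling lies within it.

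Other genes of the pathway are given as counts, to be read beside the 20% of all genes that rose in WT and the 17.2% in cKO. No test of a list was run. Of 24 NF-κB target genes tested, 15 rose and 5 fell in WT and 13 rose and 3 fell in cKO. Irf1, a transcription factor gene that interferon also drives, rose by 4.98 log2 units in WT and 4.27 in cKO, and the chemokine gene Cxcl10 by 6.60 and 5.15. Icam1, the adhesion molecule gene, rose by 3.96 and 3.94. Among 16 other IκB proteins and brakes on the pathway, 8 rose and 0 fell in WT and 5 rose and 1 fell in cKO, including the deubiquitinase gene Cyld at 1.04 and 1.19. Of 16 IκB kinase and upstream kinase genes, 6 rose and 3 fell in WT and 4 rose and 2 fell in cKO. Irak2, which carries the signal on, rose by 1.57 and 1.65, while Irak3, which blocks it, fell by 1.58 and 1.42. Of 34 receptors and adaptors, 17 rose and 4 fell in each genotype, with the non-canonical receptor gene Cd40 rising by 5.60 and 5.47. Of 25 canonical interferon genes, 24 rose in each. Several of these genes, Irf1, Cxcl10 and Usp18 among them, answer to interferon directly, so the lists are not separate from it.

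Between cKO and WT, no member passed the planned unpaired test on days 3, 5, 7 and 8 or in peritoneal macrophages, and Nfkbiz on day 3 passed with the replicate block. Of the 9, 0 were called by edgeR between cKO and WT on day 3 (7.73% of all genes called), day 5 (2.83%), day 7 (1.4%), on day 8 untreated (0.612%) or with IFNγ (4.83%), and in peritoneal macrophages (0.971%). DESeq2 also called 0 in each. At an unadjusted p under 0.05 there was 1 member with IFNγ on day 8 (24.1% of all genes) and 0 on days 3, 5 and 7 (21.8, 13.6 and 16.5%), on day 8 untreated (6.18%) and in peritoneal macrophages (9.2%). Canonical interferon genes moved in the same libraries: 25 of 25 were higher in cKO on day 3 (median 5.08 on the log2 scale), 24 on day 5, 0 on day 7, 16 on day 8 untreated, 14 with IFNγ and 11 in peritoneal macrophages. On day 7 their sum was 1077 to 4149 CPM in WT and 3226 to 4917 CPM in cKO, and WT replicate 2, at 1500 CPM, was least like its group (mean r = 0.925). Without that library 0 members were called on day 7.

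On day 3 the median log2 fold change was 0.15 over the members and 0.04 over all genes, and 8 of the 9 had a value of 0.34 or less in either direction. The exception was Nfkbiz, at 91.0, 16.5 and 26.8 CPM in WT and 189.6, 61.5 and 60.5 CPM in cKO. Within each replicate number the cKO library was the higher, and replicate 1 was the highest in both genotypes. Unpaired, the log2 fold change of 1.22 (SE 0.61) had an adjusted p of 0.2565. With the replicate number as a block, since the numbers paired these libraries, it was 1.30 with an adjusted p of 0.0159, and with replicates 2 and 3 alone 1.47 with an adjusted p of 0.00465. By day 5 the cKO libraries held 75.2, 25.9 and 27.2 CPM and the WT libraries 30.7, 22.5 and 24.0 CPM (0.73, adjusted p = 0.6499).

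Cell types other than macrophages were present on day 3. Neutrophil markers, summed over 10 genes, were at 1893 to 3455 CPM in WT and 3018 to 4526 CPM in cKO, with 0 of the 10 called, and 3 of 7 B cell, 2 of 6 dendritic and 2 of 5 mast cell and eosinophil markers were higher in cKO. Mast cell and eosinophil markers summed to 16.1 to 29.7 CPM in WT and 49.6 to 56.5 CPM in cKO. Their part in the Nfkbiz values was not tested.

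Around the members on day 3, where 7.73% of all genes were called in either direction, 3 of 16 other brakes were higher in cKO and 0 were lower. The log2 fold change was 2.25 for Nlrc5, 0.84 for Nlrx1 and 5.82 for the interferon-induced protease gene Usp18. Of 35 receptors and adaptors 6 were higher, among them Rnf31 (0.95), a subunit of the linear ubiquitin ligase, and the peptidoglycan sensors Nod1 (1.96) and Nod2 (1.17). Of the 16 kinases 0 were called. Of 29 target genes 4 were higher, including Irf1 (1.61), Csf1 (2.75), the gene of the macrophage growth factor, and Gadd45b (1.5). Irf1, Cxcl10 and Csf1 were the 3 called on day 5, at 1.02, 3.33 and 2.0, where 2.83% of all genes were called. Usp18, Irf1 and Cxcl10 answer to interferon directly, so here too the lists are not separate from it.

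**Figure D2:**
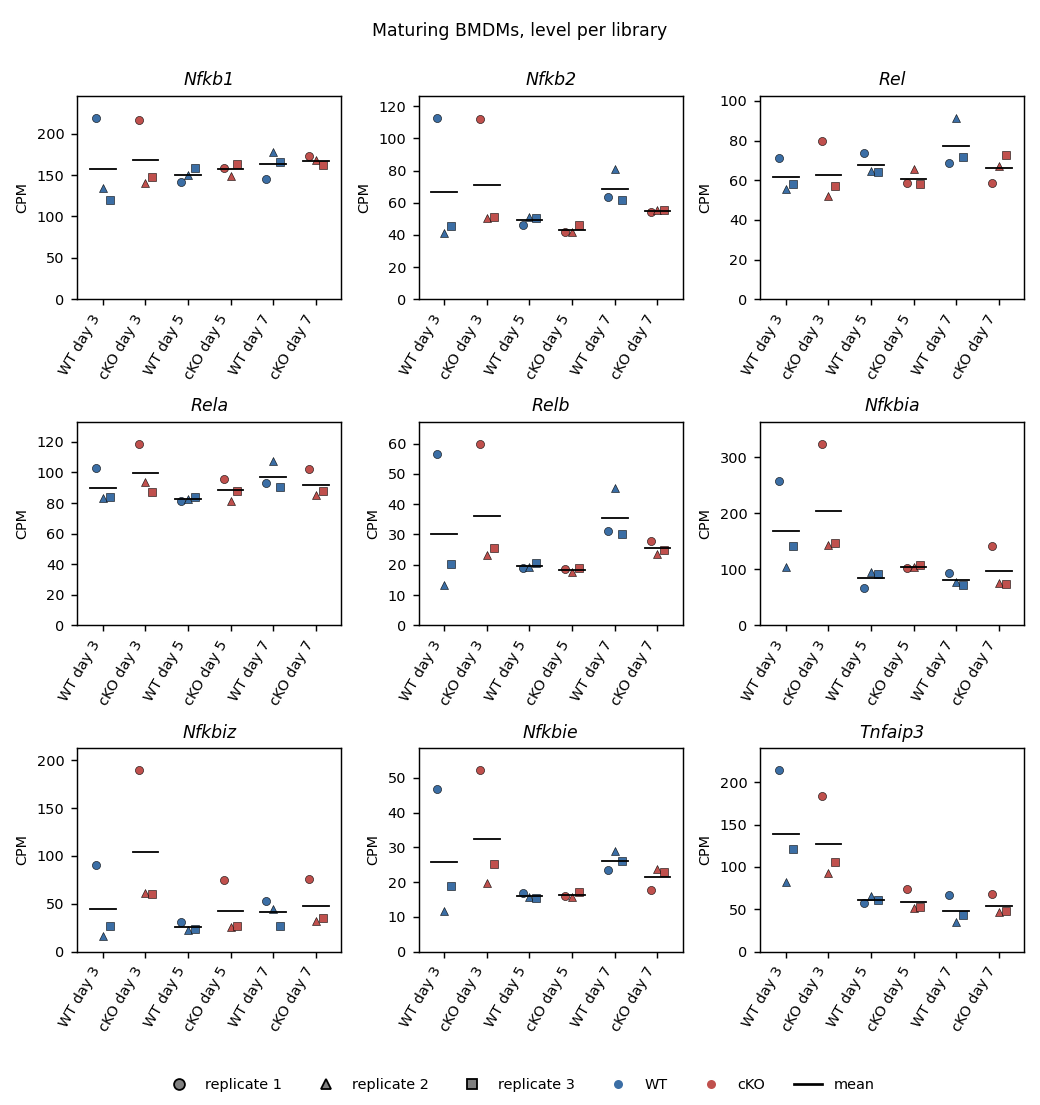
CPM of the 9 members on days 3, 5 and 7 for WT and cKO cells, 3 libraries a group. Points are libraries and bars group means. Replicate 1 is the high point of both genotypes on day 3 for most members, and the genotypes overlap on every day except for a few members with separated libraries and no call.

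On day 8 the widest log2 difference without IFNγ was 0.24, for Nfkbia (95% interval -0.16 to 0.63). With IFNγ it was 0.56 for Nfkbie, whose libraries overlapped, and -0.46 for Tnfaip3, at 90.3, 147.4 and 123.4 CPM in WT against 86.7 and 88.6 CPM in cKO (adjusted p = 0.1915). In peritoneal macrophages Nfkb1 was at 99.0, 93.6 and 74.3 CPM in WT and 61.0, 68.9 and 75.2 CPM in cKO (-0.38, adjusted p = 0.5598), and Tnfaip3 at 19.4, 12.7 and 27.4 against 31.6, 19.3 and 28.3 CPM (0.41, adjusted p = 0.7762). These libraries overlapped.

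Per kilobase, peritoneal macrophages listed the members in another order below the first pair. WT peritoneal libraries held 227 ± 73.0 CPM per kilobase of Nfkbia and 54.3 ± 5.82 of Rela (SD, n = 3), and only 3.29 ± 1.77 of Rel and 2.74 ± 1.02 of Tnfaip3. The study's methods give a different library kit for these cells, so tissue and kit cannot be told apart and the levels were not tested against BMDMs.

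**Figure D3:**
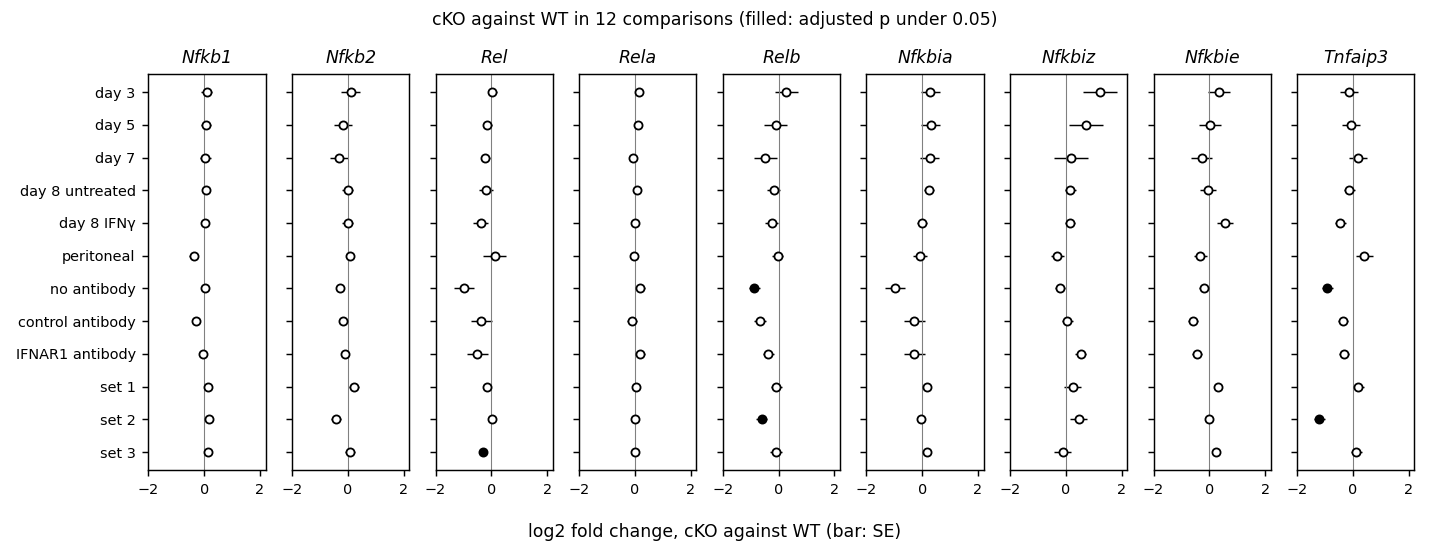
Log2 fold change of each member between cKO and WT in 12 comparisons, with bars of 1 SE; filled points passed an adjusted p of 0.05 by edgeR. The filled points are Relb and Tnfaip3 without antibody, Relb and Tnfaip3 in set 2 and Rel in set 3, and all 5 lie below 0.

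From day 3 to day 5, group means were lower for all members in cKO and for all but Rel in WT. No member was called by the planned test. Without WT day 3 replicate 1, the WT log2 change was 0.078 for Nfkbie, 0.245 for Nfkbiz and 0.223 for Relb. Tnfaip3 was at 214.4, 82.6 and 120.7 CPM on day 3 in WT, at 57.8, 65.9 and 60.7 CPM on day 5 and at 66.7, 34.4 and 43.1 CPM on day 7. In cKO it was at 183.5, 93.3 and 105.5, then 73.4, 51.2 and 52.6, then 68.2, 46.8 and 47.5 CPM. Every day 5 library stood below every day 3 library of its genotype. The log2 change from day 3 to 5 was -1.18 in WT (SE 0.33, adjusted p = 0.06978) and -1.11 in cKO (SE 0.33, adjusted p = 0.07458). In cKO, where the replicate numbers paired, the blocked value was -1.07 with an adjusted p of 0.0103, and Nfkbiz then also passed (-1.25, adjusted p = 0.032).

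Nfkbia followed the same course, at 257.6, 104.8 and 141.4 CPM on day 3 and 66.7, 94.9 and 92.4 CPM on day 5 in WT (-0.99, adjusted p = 0.1369), and at 323.9, 142.7 and 147.5 then 102, 104.2 and 107.8 CPM in cKO (-0.97, adjusted p = 0.1387). The counts called were 0 of 9 from day 3 to 5 in WT (2.64% of all genes) and cKO (3.59%), and 0 from day 5 to 7 in WT (0.238%) and cKO (0.0564%). By unadjusted p under 0.05 they were 2, 5, 0 and 0 (20.6, 18.4, 17.3 and 4.99% of all genes), and by DESeq2 1, 1, 0 and 0. The change from day 3 differed between genotypes for 0 of the 9 members on day 5 (0% of all genes) and on day 7 (0.0439%), with 0 members at an unadjusted p under 0.05 (4.48 and 15.5% of all genes) and 0 by DESeq2. Replicate 1 decided much of the spread: on day 3 it held 56.5 and 59.8 CPM of Relb in WT and cKO, where the other libraries held 13.3 to 25.6 CPM.

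With time course replicates 2 and 3 alone, an alternative chosen after seeing the data, 4 members were called from day 5 to 7 in WT, in a fit that called 3008 of all genes in place of 38. They were Relb (0.90, adjusted p = 0.0226), Nfkbie (0.81, 0.024) and Nfkb2 (0.48, 0.0353), which were higher, and Tnfaip3 (-0.72, 0.0197), which was lower. Markers of other cell types moved over the same days: 6 of 10 neutrophil markers fell from day 3 to 5 in WT and 4 in cKO, and 5 of 7 B cell markers fell in each. The B cell sum in WT was 34.6 to 44.8 CPM on day 3, 15.1 to 102 CPM on day 5 and 57.7 to 193 CPM on day 7. Of 29 target genes, 2 fell in WT and 3 in cKO, Vcam1 (-1.83), Cxcl3 (-3.85) and Il1b (-4.02). The part of these cell types in the members' values was not tested.

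In the antibody experiment, WT cells kept without antibody held more Tnfaip3 and Relb than cKO cells. Tnfaip3 was at 217.8, 375.8 and 322.3 CPM in WT and 154.4, 151.7 and 180.6 CPM in cKO, with no overlap (-0.91 on the log2 scale, SE 0.19, adjusted p = 0.009126). Relb was at 32.4, 53.3 and 39.0 against 22.3, 23.4 and 22.6 CPM, also with no overlap (-0.87, SE 0.20, adjusted p = 0.01841). These were 2 of 9 members, both lower, where 3.71% of all genes were lower and 7.09% were called in either direction. Rel, at 86.2, 156.6 and 106.5 against 59.0, 61.7 and 55.8 CPM, did not overlap either but was not called (-0.98, SE 0.37, adjusted p = 0.1081).

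Both calls turned on single libraries. Tnfaip3 lost its call without WT replicate 2 (adjusted p = 0.0572) or cKO replicate 2 (0.053), and Relb kept its call only without WT replicate 1, with adjusted p of 0.0543 to 0.118 otherwise. Immediate early genes, which stress and handling induce within minutes, moved the same way: their sum over 15 genes was 7471 to 10828 CPM in WT and 5173 to 5264 CPM in cKO, and 4 of the 15 were lower. Neutrophil markers summed to 75.1 to 103 CPM in WT and 143 to 179 CPM in cKO, and B cell markers to 13.3 to 21.3 and 6.34 to 10.2 CPM. The part of these genes in the result was not tested. Of 27 target genes Cxcl10 was higher in cKO (1.98), and Il1a (-1.64) and Cxcl1 (-1.49), the interleukin and neutrophil chemokine genes, were lower, while 25 of 25 canonical interferon genes were higher.

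With the control antibody 0 of the 9 members differed between genotypes (4.45% of all genes called) and with the IFNAR1 antibody 0 (0.675%). At an unadjusted p under 0.05 there were 3 and 2 (15.7 and 11.7% of all genes), and DESeq2 called 2 and 0. With the control antibody Tnfaip3 was at 189.3, 184.7 and 223.8 CPM in WT and 129.1, 167.2 and 169.3 CPM in cKO, separated but not called (-0.36, adjusted p = 0.3756). Relb gave -0.67 (adjusted p = 0.08087) and Nfkbie -0.59 (adjusted p = 0.08934), each with all WT libraries above all cKO libraries.

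**Figure D4:**
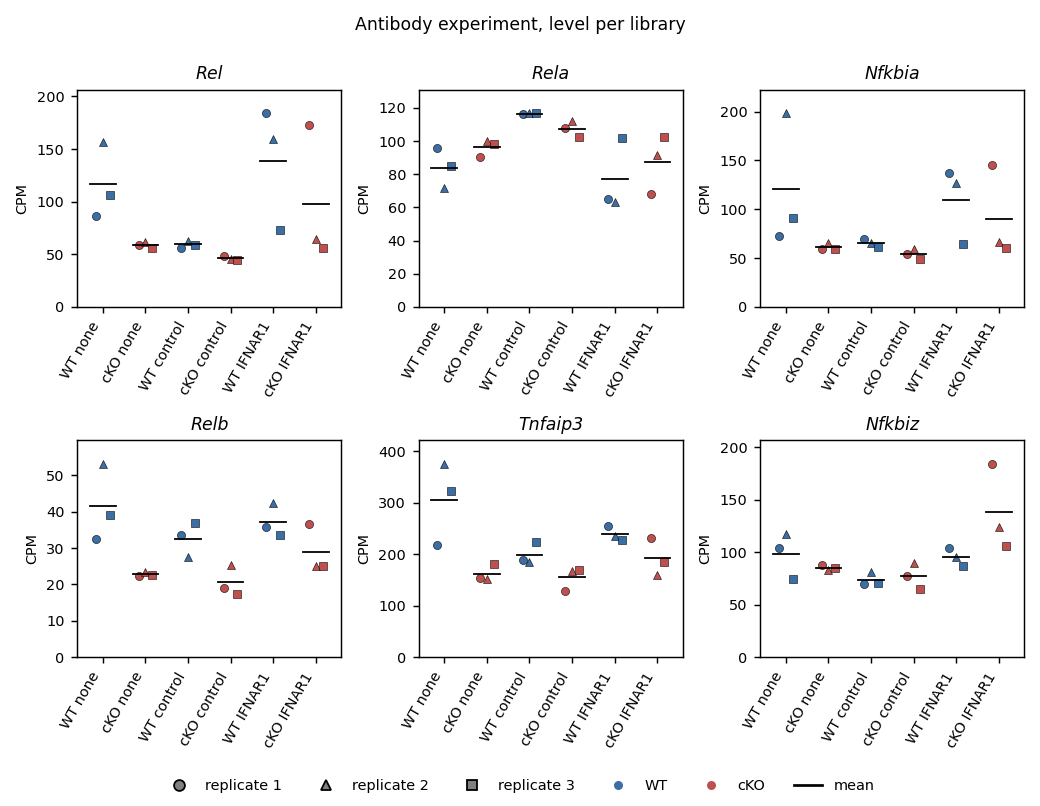
CPM of Rel, Rela, Nfkbia, Relb, Tnfaip3 and Nfkbiz in each library of the antibody experiment, by genotype and antibody arm, 3 libraries a group. Points are libraries and bars group means. Tnfaip3 and Relb are higher in WT than in cKO without antibody. Rel and Nfkbia spread widely within both WT arms that lack the control antibody and within cKO with the IFNAR1 antibody.

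Blocking IFNAR1, the type I interferon receptor, left 2 members called in WT and 1 in cKO, each against the control antibody. In WT, Rel rose from 56.4, 63.1 and 59.1 CPM to 183.8, 159.2 and 73.5 CPM (1.22 on the log2 scale, SE 0.37, adjusted p = 0.04742) and Rela fell from 116.1, 116.6 and 116.6 CPM to 65.2, 63.5 and 102 CPM (-0.60, SE 0.18, adjusted p = 0.04345), where 9.89% of all genes were called. WT libraries without antibody held 86.2 to 156.6 CPM of Rel and 71.6 to 95.6 CPM of Rela. Their means lay nearer the IFNAR1 arm than the control arm for both genes. In cKO, Nfkbiz rose from 77.0, 89.4 and 64.5 CPM to 184.6, 124.5 and 105.8 CPM (0.85, SE 0.19, adjusted p = 0.02543), where 2.34% of all genes rose and 4.03% were called. Rel in cKO was at 48.4, 46.0 and 44.6 CPM and then 172.5, 65.0 and 56.3 CPM, which did not overlap but was not called (1.08, adjusted p = 0.1138).

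The difference between genotypes was not called for any member, with 0% of all genes called, 0 members and 5.67% of all genes at an unadjusted p under 0.05, and 0 members by DESeq2. Within the arm, libraries with high Rel had low Rela: WT IFNAR1 replicates 1 and 2 held both the high Rel and the low Rela, and cKO IFNAR1 replicate 1 likewise. Leaving out WT IFNAR1 replicate 3 kept both WT calls, and leaving out any other single library of these groups ended both, with adjusted p up to 0.178 for Rel and 0.166 for Rela. Nfkbiz lost its call without cKO IFNAR1 replicate 1 (adjusted p = 0.12) or without control replicate 1, 2 or 3 (0.0572, 0.0652 and 0.14). Immediate early genes rose too, 4 of 15 in WT and 7 in cKO, and their sum was 9631 CPM in WT IFNAR1 replicate 1 and 10793 CPM in cKO IFNAR1 replicate 1. In WT, B cell markers summed to 7.64 to 9.14 CPM with the control antibody and 16.2 to 34.7 CPM with the IFNAR1 antibody, and dendritic markers to 3.56 to 6.03 and 9.15 to 33.5 CPM. In cKO, stromal markers summed to 165 to 300.4 CPM and then 43.3 to 86.5 CPM. The part of these genes was not tested.

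In WT, Tnfaip3 was lower with the control antibody than with no antibody by edgeR (-0.62, SE 0.18, adjusted p = 0.04869). It was 1 of 9 members where 5.63% of all genes fell and 8.9% were called. The numbers paired these libraries, and with the replicate block the value was -0.61 with an adjusted p of 0.0551. The call was also lost without WT control replicate 1, 2 or 3 (adjusted p = 0.131, 0.1763 and 0.0915). It was lost without WT no antibody replicate 2 or 3 as well (0.2245 and 0.1423). Rel and Rela were not called between these WT arms by edgeR (adjusted p = 0.1029 and 0.09874). With only the groups compared both passed, Rel lower with the control antibody (-0.97, adjusted p = 0.02423) and Rela higher (0.47, adjusted p = 0.03997). In cKO 0 were called (1.46% of all genes), 1 had an unadjusted p under 0.05 (12% of all genes) and DESeq2 called 0. The genotypes differed in this response for 0 members (0% of all genes) by edgeR and 0 by DESeq2, with 0 at an unadjusted p under 0.05 (7.35%). The values were -0.62 in WT and -0.07 in cKO for Tnfaip3, with an adjusted p of 0.6586 for their difference. When the least similar library of each loose group was left out, an alternative chosen after seeing the data, 6 members were called between genotypes without antibody and 5 with the IFNAR1 antibody, in place of 2 and 0, while the genes called among all rose from 1219 to 6754 and from 116 to 7042.

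In the BMDM sets, Tnfaip3 fell with H3.3 loss in set 2 and not in sets 1 and 3. It was at 61.2, 58.5 and 60.001 CPM in WT and 25.3, 25.6 and 26.7 CPM in cKO of set 2, a log2 fold change of -1.21 (SE 0.20, adjusted p = 6.387e-05). In set 1 it was at 54.4, 28.8 and 30.5 CPM in WT and 41.9, 43.8 and 43.4 CPM in cKO (0.18, adjusted p = 0.5064), and in set 3 at 51.7, 29.95 and 26.6 against 37.0, 41.3 and 39.0 CPM (0.11, adjusted p = 0.7107). WT replicate 1 lay above all cKO libraries and the other WT libraries below them in both of these sets.

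The difference between sets was itself tested, in interactions that were not among the planned tests. The effect of H3.3 loss on Tnfaip3 was lower in set 2 than in the others, with a difference of -1.40 on the log2 scale from set 1 (SE 0.28, adjusted p = 0.001028) and of -1.32 from set 3 (SE 0.28, adjusted p = 0.001572), where 20 and 19.5% of all genes were called in either direction and 11.6 and 10.5% were lower. Sets 3 and 1 gave -0.07 (adjusted p = 1), with 0 members and 0% of all genes called, 0 members at an unadjusted p under 0.05 (1.54% of all genes) and 0 by DESeq2. The set 2 call and both differences stood under every alternative tried for them. Relb was the other member called in set 2, at 30.4, 28.2 and 31.6 CPM in WT and 19.8, 22.9 and 16.7 CPM in cKO (-0.60, SE 0.20, adjusted p = 0.03289), and it kept its call in 1 of 6 fits without a library, with adjusted p of 0.028 to 0.154. Both members fell, where 11.3% of all genes fell and 21% were called.

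Itgax, which encodes CD11c of dendritic cells and some macrophages, moved with the set 2 result. It was at 70.8 to 101 CPM in WT of set 2 and fell by 2.70 log2 units in cKO (adjusted p = 2.594e-08). The other 6 dendritic markers, Flt3, Zbtb46, Ccr7, Xcr1, Siglech and Cd209a, had means of 0.05 to 0.75 CPM in WT of set 2, and 5 of them were higher in cKO. B cell markers summed to 20.3 to 26.9 CPM in WT of set 2, against 110 to 188 and 95.2 to 193 CPM in WT of sets 1 and 3. In cKO they summed to 43.8 to 61.1, 33.9 to 40.3 and 39.6 to 61.2 CPM in sets 1, 2 and 3. The part of Itgax-positive cells and of B cells in the Tnfaip3 difference was not tested.

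Set 1 had 0 members called (34.7% of all genes), with 1 at an unadjusted p under 0.05 (43.5% of all genes) and 0 by DESeq2. Set 3 had 1, Rel, which was at 93.5, 73.0 and 77.3 CPM in WT and 72.9, 60.7 and 62.9 CPM in cKO (-0.31, SE 0.10, adjusted p = 0.0133), where 18% of all genes fell and 34.9% were called. Rel lost its call without WT replicate 1 (adjusted p = 0.121), cKO replicate 2 (0.072) or cKO replicate 3 (0.0586). WT replicate 1 held 3301 and 3982 CPM of immediate early genes in sets 1 and 3 against 1107 to 1335 CPM in the other WT libraries of these sets. With replicates 2 and 3 alone, chosen after seeing the data, set 1 had 3 members called, all higher in cKO (Nfkbia 0.38, Nfkbiz 0.55, Tnfaip3 0.57), and set 3 had 6, the same 3 at 0.50, 0.46 and 0.54 with Nfkb1 (0.28) and Nfkbie (0.43) higher and Rel lower (-0.24). These fits called 6151 of all genes in set 1 and 5094 in set 3, in place of 6275 and 6318. Without WT replicate 1 alone, 1 member was called in set 1 and 3 in set 3.

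Target genes in the sets moved both ways. Of 29, 12 were higher and 3 lower in set 1, 4 higher and 5 lower in set 2, and 9 higher and 3 lower in set 3. Tnf, the leading inflammatory cytokine gene, was higher by 1.45 in set 1 and 1.62 in set 3, and the monocyte chemokine gene Ccl2 by 2.21 and 2.32. In set 2 the leading genes were Cd83 (-1.07), Marcksl1 and Csf1 (1.42). Canonical interferon genes were higher in every set, 21, 25 and 19 of 25.

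**Figure D5:**
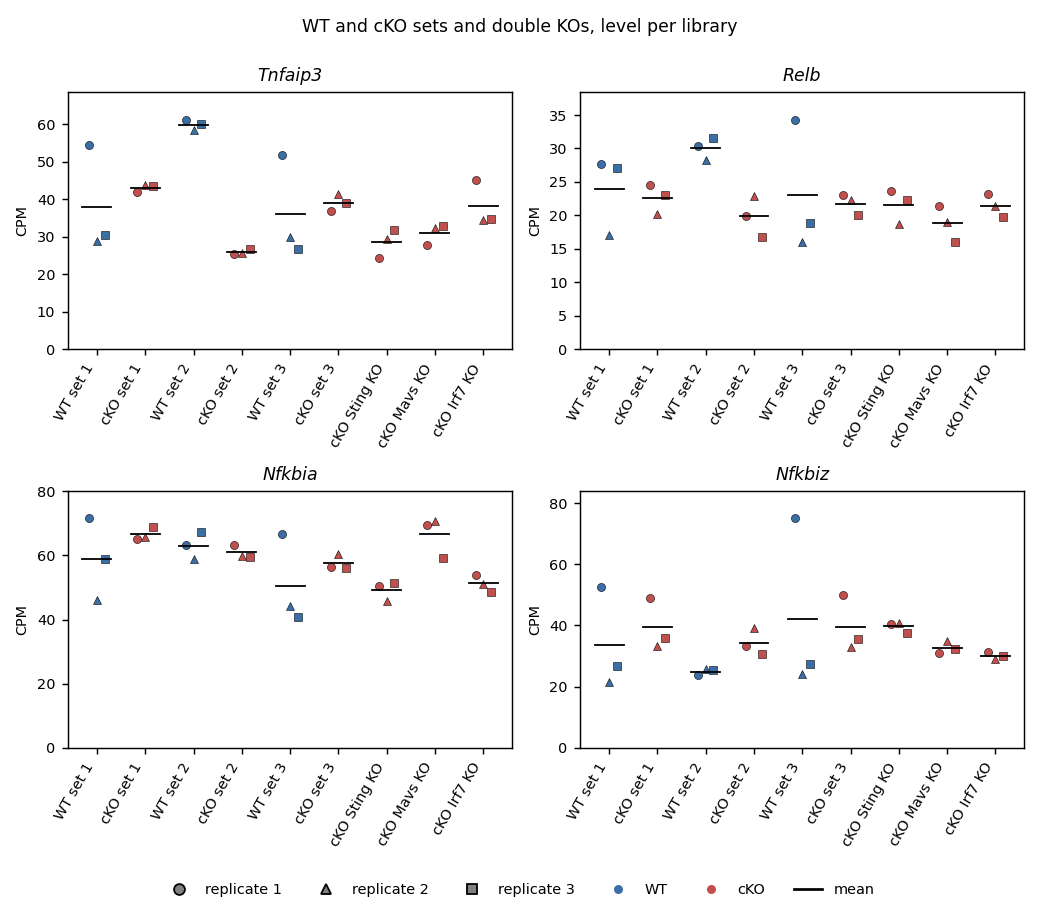
CPM of Tnfaip3, Relb, Nfkbia and Nfkbiz in each library of the 3 BMDM sets and of the 3 double knockout groups, 3 libraries a group. Points are libraries and bars group means. WT of set 2 holds 58.5 to 61.2 CPM of Tnfaip3 and cKO of set 2 holds 25.3 to 26.7 CPM, while the other sets overlap.

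Few members differed between the double knockouts and the cKO sets. Loss of Sting, the adaptor of cytosolic DNA sensing, was checked by its gene Tmem173, whose mean was 5.51 CPM in cKO Sting KO against 71.9 to 88.0 CPM in the cKO sets. Irf7 was at 106 against 310 to 388 CPM in cKO Irf7 KO, and Mavs at 37.5 against 38.9 to 49.8 CPM in cKO Mavs KO, so the Mavs counts do not separate that line. Against the mean of the 3 cKO sets, 2 of 9 members were called in cKO Sting KO (36.1% of all genes), 0 in cKO Mavs KO (8.79%) and 0 in cKO Irf7 KO (9.85%). At an unadjusted p under 0.05 there were 1 and 4 in cKO Mavs KO and cKO Irf7 KO (21.7 and 23.8% of all genes), and DESeq2 called 0 and 1. Against set 1, 2 or 3 alone, the genes called among all were 2322, 88 and 3268 in cKO Mavs KO. In cKO Irf7 KO they were 1415, 3545 and 161, and in cKO Sting KO 4069, 6094 and 5737. The part of differences between sets in the shares above was not tested.

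In cKO Sting KO, Nfkbia was at 50.3, 45.8 and 51.5 CPM against 56.2 to 68.8 CPM in cKO libraries (-0.33, SE 0.11, adjusted p = 0.02865), and Rela at 115.9, 107.5 and 117 CPM against 84.2 to 110.7 CPM (0.18, SE 0.07, adjusted p = 0.03089). Against set 2 alone, adjusted p was 0.0865 for Nfkbia and 0.627 for Rela, and against set 3 alone 0.212 for Nfkbia. With set 1 alone, Nfkbia kept its call and Rela had an adjusted p of 0.233. By edgeR, Nfkbia also lost its call without Sting KO replicate 1, 2 or 3 (adjusted p = 0.0716, 0.1257 and 0.0561). Rela lost its call without Sting KO replicate 1 or 3 (0.1334 and 0.1496), cKO set 1 replicate 2 (0.0625) or cKO set 3 replicate 1 (0.05695). Tnfaip3, at 24.4, 29.3 and 31.7 CPM, was below all libraries of cKO sets 1 and 3 and on both sides of those of set 2, and was not called (-0.31, adjusted p = 0.1578). Against set 1 alone it was called (-0.60, adjusted p = 0.03268), and against set 2 alone it was not (0.138, adjusted p = 0.6379). It also passed with no filter (adjusted p = 0.004523) and with only the groups compared (0.0009747). Tnfaip3 was at 27.8, 32.4 and 32.9 CPM in cKO Mavs KO and 45.1, 34.4 and 34.7 CPM in cKO Irf7 KO.

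Among other genes in cKO Sting KO, 7 brakes of 16 were higher and 4 lower than in cKO, with the A20 partners Tnip1 at 0.52 and Tnip3 at -1.59, and 13 of 35 receptors and adaptors were higher and 3 lower. Of 25 canonical interferon genes 17 were higher.

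Some members resembled one another in how they varied between libraries, and r between pairs of members ran from -0.507 to 0.878. Over the 79 placed libraries, with log2 CPM centred within each experiment, the most similar of 7310 genes to Nfkb2 was Relb (Pearson r = 0.878) and then Nfkbie (0.825) and Rab10 (0.71). Nfkbie led the list for Nfkb1 (0.821), ahead of Icam1 (0.765) and Ctsc (0.732), and was itself nearest to Icam1 (0.86), Rnf19b (0.843) and Fbrs (0.838). Relb was followed by Ninj1 (0.775) and Nfkbie (0.751) after Nfkb2. For Tnfaip3 the nearest were Cd274 (0.73), Stx11 (0.722) and Nfkbia (0.719), and for Nfkbia Tmem189 (0.782), Ppp4r2 (0.764) and Tnip1 (0.758).

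Rel, Rela and Nfkbiz kept other company. Rel was nearest to Tet2 (0.835), Fem1c (0.832) and Cog3 (0.823), Rela to Orai1 (0.849), Tmem127 (0.828) and Rnf44 (0.817), and Nfkbiz to Rab20 (0.682), Tnip1 (0.608) and Rac2 (0.603). Rel and Rela ran against each other (r = -0.507). These are descriptions over libraries that share experiments, treatments and depth, and they carry no test.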

How the data were processed

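The deposited values were raw counts of reads per gene, written by STAR after Cutadapt, with reads mapped to mm10, per the labels. Versions of STAR and Cutadapt are not given in the sources used here. Counts from column 2, which ignores strand, were used. Reads in the rows that name no gene were left out, with medians per experiment of 1.76 to 16.0% unmapped, 6.37 to 12.2% multimapping, 4.78 to 25.0% without a feature and 4.26 to 6.02% ambiguous. The sets use mixed gene lists and were joined on unversioned identifiers (54079 genes, 52480 with the same version).

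Each experiment was fitted separately, with all its groups in one model, by edgeR 4.0.16 in R 4.3.3 (filterByExpr with a minimum count of 10 and total of 15, TMM scaling, quasi-likelihood test). P-values were adjusted by Benjamini-Hochberg over all 12361 to 18083 genes tested, and an adjusted p under 0.05 was called. CPM were computed on TMM-scaled libraries, and intervals from the SE and degrees of freedom of the test. Double knockouts were compared with the mean of 3 cKO sets. DESeq2 1.42.0, RLE scaling, no filter, only the groups compared, a replicate block and leaving out each library were alternatives. Self-tests used simulated counts.

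Same-numbered libraries deviated together (each correlation over 0.1) for cKO against WT on days 3, 5 and 7, in peritoneal macrophages and in sets 1 and 3, for IFNγ in WT, for the control antibody in WT and for both day steps in cKO. No library pair agreed within counting noise. Where nothing ties replicates to separate animals, p-values measure the spread between these samples. All 9 members are reported. Of other lists, up to 3 called genes by lowest adjusted p are named for main comparisons, and of likeness the 3 genes with the highest r. Members and lists were chosen with earlier results of these data known. Results for promoter motifs other than the NF-κB consensus are not reported here.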

Additional observations from a re-analysis of the deposited data

Results flagged for a closer look

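The effect of H3.3 loss on Tnfaip3 differed between BMDM sets. The difference of log2 fold changes, tested as an unplanned interaction in edgeR, was -1.396 for set 2 against set 1 and -1.321 for set 2 against set 3. All 3 libraries of each set 2 group held the direction, with WT at 58.5 to 61.2 CPM and cKO at 25.3 to 26.7 CPM.

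One of the 2 libraries that entered no comparison, the day 8 cKO replicate 3 titled untreated and named for IFNγ, held members above the highest placed untreated library. Nfkb1 was at 204.93 CPM in it against 121.8 CPM, Nfkbie at 99.42 against 19.1 CPM, Relb at 54.47 against 28.1 CPM and Tnfaip3 at 87.22 against 36.7 CPM. The library titled IFNγ and named untreated held 117.8, 18.1, 18.1 and 23.2 CPM of the same genes, all below those highest untreated values. Neither library was assigned by these values.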

How the results depend on the processing

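Of 24 member and comparison pairs that were called, 235 of 303 values under alternatives stayed called, and 0 called values changed sign. IFNγ calls in WT and the Tnfaip3 call of set 2 stood throughout. The cause of the other changes was not tested.

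Counts of called members moved as follows. DESeq2 gave 2 with the control antibody, 2 in set 3, 1 in cKO Irf7 KO and 1 from day 3 to 5 in each genotype. RLE scaling gave 2 in set 3. With no filter the counts were 1, 4 and 0 in sets 1, 2 and 3, 1 in cKO Irf7 KO, 2 for the control antibody against none in WT, 2 from day 3 to 5 in each genotype, 2 and 1 for the IFNAR1 antibody in cKO and WT, and 3 and 4 for the difference of set 2 from sets 1 and 3. With only the groups compared they were 5 with the control antibody, 1, 5 and 0 in sets 1, 2 and 3, 2, 1 and 4 in cKO Irf7 KO, cKO Mavs KO and cKO Sting KO, 1 and 2 for the control antibody against none in cKO and WT, 1 from day 3 to 5 in cKO, 0 and 0 for the IFNAR1 antibody in cKO and WT, and 2 for IFNγ in cKO. With the doubtful libraries placed by title, IFNγ in cKO gave 0. Set 2 as reference gave 2 in cKO Irf7 KO and 0 in cKO Sting KO, and set 3 gave 1 in cKO Mavs KO and 1 in cKO Sting KO.

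With the replicate block the counts were 1 for cKO against WT on day 3, 0 for the control antibody against none in WT, and 2 and 1 from day 3 to 5 in cKO and WT. Only the WT day step among these was not paired by the correlations (-0.048 to 0.23). The block moved no other count by more than 1.5 times.

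Leaving out single libraries gave 0 to 1 called on day 3, 0 to 1 on day 8 with IFNγ, 0 to 3 without antibody, 0 to 1 in set 1, 1 to 3 in set 2, 0 to 3 in set 3, 0 to 3 in cKO Sting KO, 0 to 1 for the control antibody against none in WT, 0 to 1 from day 3 to 5 in WT, 0 to 1 and 0 to 4 for the IFNAR1 antibody in cKO and WT, 2 to 6 for IFNγ in cKO, and 1 to 2 and 1 to 4 for the difference of set 2 from sets 1 and 3.

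Alternatives chosen after seeing the data also moved the count over all genes. Without the least similar libraries there were 6 between genotypes without antibody, 5 with the IFNAR1 antibody, 5 for the control antibody against none and 5 for the IFNAR1 antibody in WT, 0 for the IFNAR1 antibody in cKO, and 5 and 3 for the genotype differences in these responses, where all genes called went from 1219 to 6754, 116 to 7042, 1530 to 6711, 1700 to 8445, 692 to 863, 0 to 3038 and 0 to 4333. Sets 1 and 3 with replicates 2 and 3 gave 3 and 6, with 1 in cKO Irf7 KO, 5 in cKO Sting KO and 3 and 4 for the set differences (6151, 5094, 2372, 7183, 4246 and 3123 of all genes). The time course with replicates 2 and 3 gave 1 on day 3, 2 from day 3 to 5 in cKO and 4 from day 5 to 7 in WT (1320, 1541 and 3008 of all genes).

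Values that changed sign were uncalled by edgeR with all placed libraries of an experiment in one model. With time course replicates 2 and 3 the WT step from day 3 to 5 was 0.0435 for Nfkbie, 0.109 for Nfkbiz and 0.254 for Relb, and leaving out single libraries gave -1.02 to 0.078, -1.185 to 0.245 and -0.954 to 0.223, with the positive values without WT day 3 replicate 1. Nfkbiz in set 3 was 0.456 with replicates 2 and 3 and -0.384 to 0.614 without single libraries, in set 1 -0.00437 to 0.728, and for set 2 against set 3 -0.151 to 0.848. Tnfaip3 in set 3 ran from -0.0655 to 0.464. In cKO Irf7 KO it was -0.176 and -0.037 against sets 1 and 3 and -0.0256 to 0.184 without single libraries, and against set 2 it was 0.264 in cKO Mavs KO and 0.138 in cKO Sting KO. Rela in cKO Irf7 KO was 0.0278 against set 3. The genotype difference of the IFNAR1 response of Rel ran from -0.831 to 0.142.

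The day 8 libraries were the shallowest and the cKO groups held 2 each, which limits what that comparison can show.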
